A study of Drosophila melanogaster with 14 samples.

Results

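The genes described here drive and carry out cell division in the wing imaginal disc, a sheet of larval epithelium from which the wing and notum of the adult form. They are 40 regulators of G2/M, of the spindle checkpoint and of cytokinesis, listed by name with the kinesins left out. All 40 were found among the 17807 gene IDs of the count table, and all 40 were among the 9186 genes that passed the filter on low counts. RNA was sequenced from Drosophila melanogaster wing discs at the wandering stage of the last larval instar, 3 libraries from yw larvae, called wildtype here, and 3 from yw larvae that also carry the nubbin allele nub[1], called nub1. The yw markers are shared by both groups. The labels give no sex. They do not say that replicates are independent crosses or animals, so the library-to-library spread behind a p-value here may not be that between animals. The allele was carried by the whole animal, and whole discs were used, so RNA of pouch, hinge, notum and attached myoblasts and trachea was mixed.

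Libraries held 58434785 to 83448836 counts. Levels are given in CPM, library-scaled counts adjusted by the trimmed mean of M values (TMM). The gene nub was at 329 ± 12.2 CPM over the wildtype libraries and 10.9 ± 3.08 CPM over the nub1 libraries (SD, n = 3), matching the labels. Its neighbour and paralog pdm2 went from 57.1 ± 0.394 to 0.107 ± 0.0426 CPM, so both nub and pdm2 were low in nub1 discs. Of 11 wing disc markers all 11 were expressed, with sums of 4387 to 4548 CPM in wildtype and 4253 to 4526 CPM in nub1 libraries. The largest part of these sums was hth, at 1320 and 1338 CPM (group means). At an edgeR adjusted p under 0.05, 3 of the 11 were higher in nub1 and 5 lower, beside 24.4% and 23.9% of all tested genes. Among the lower ones were dve (116 to 33.2 CPM) and en (93.7 to 47.8 CPM), so similar sums do not mean like composition. The eye gene gl had 0 counts in all 6 libraries and toy at most 2, while so and eya were at 16.7 to 33.2 CPM (group means).

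Entry into mitosis is set by Cdk1 bound to mitotic cyclins. Wee1 and Myt1 hold Cdk1 inactive by phosphorylation, and the phosphatase String (stg, a Cdc25) removes that block, so that stg transcription times division in many fly tissues. Tribbles (trbl) opposes String by promoting its turnover. Aurora and Polo kinases then build the spindle, the spindle checkpoint holds back the anaphase-promoting complex (APC/C) until chromosomes are attached, and separase cuts cohesin once its inhibitor, the securin Pimples (pim), is destroyed. In the wing disc these genes are transcribed in dividing cells, and cells are held in G2 in parts of the wing margin and in sensory organ precursors.

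Of the 40 genes 20 rose by small amounts in nub1 discs and 2 fell, with fitted log2 fold changes from -0.42 for aurB to 0.49 for trbl. A gene was called when its adjusted p in edgeR's quasi-likelihood test over all 9186 genes was under 0.05. By that rule 18 of the 40 genes did not pass. Across all tested genes 24.4% rose and 23.9% fell, 48.3% in either direction. The fitted log2 fold change (nub1 against wildtype) was above 0 for 34 genes and below 0 for 6, with a median of 0.11 beside a median of -0.0030 over all tested genes. All 3 nub1 libraries lay above all 3 wildtype libraries for 23 genes and below them for 3, where 29.7% and 30.3% of all tested genes did so. A call with a difference of at least 1.2-fold was made for 6 of the 40 genes, and for 26.2% of all tested genes. The summed level of the 40 genes was 5591, 5503 and 5830 CPM in wildtype replicates 1 to 3 and 5963, 6043 and 6291 CPM in nub1 replicates 1 to 3. In whole discs, more dividing cells, more RNA per dividing cell and a difference of stage or cell mix cannot be told apart. The stage and cell markers are given below.

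**Figure D1:**
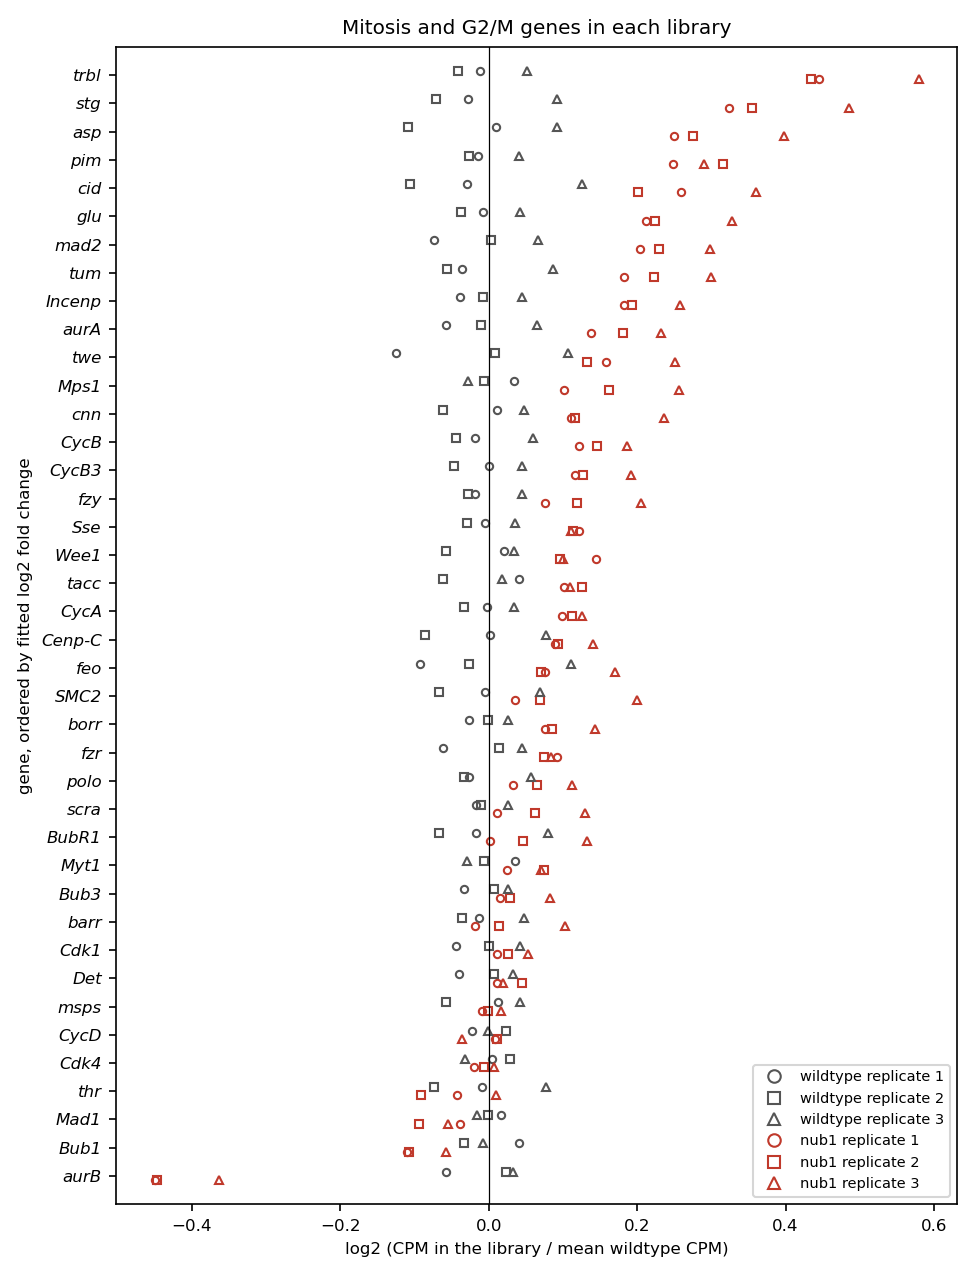
Level of each of the 40 genes in each library, as the log2 ratio of its CPM to the mean wildtype CPM, with 1 symbol per library, wildtype in grey and nub1 in red. Genes are ordered by fitted change, from aurB, where all nub1 symbols lie to the left, to trbl, where they lie farthest to the right; the triangles of replicate 3 are often the right-most of their group.

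Among the regulators of mitotic entry, a group that also holds the G1 pair CycD and Cdk4, 6 of 11 genes rose and 0 fell. Over all tested genes 24.4% rose and 23.9% fell. The largest change of the 40 genes was that of trbl (FBgn0028978, 3L:20396288-20401609, dm6), the pseudokinase that promotes String turnover. Its level was 74.7, 73.2 and 78.0 CPM in wildtype replicates 1 to 3 and 102.5, 102 and 112.5 CPM in nub1 replicates 1 to 3 (log2 fold change 0.49 ± 0.044, SE; edgeR adjusted p = 3.45e-05). The groups were well separated, the lowest nub1 library lying above the highest wildtype library by more than the range within either group. The Cdc25 phosphatase gene stg (FBgn0003525, 3R:29251826-29255800) stood at 167, 162 and 181 CPM in wildtype replicates 1 to 3 and 213, 218 and 238 CPM in nub1 replicates 1 to 3 (log2 fold change 0.39 ± 0.055, SE; edgeR adjusted p = 0.000731). Here too the groups did not overlap, and replicate 3 was the highest library in both. Both genes were called in all 17 alternative fits, where the log2 fold change ranged from 0.44 to 0.52 for trbl and from 0.34 to 0.44 for stg.

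The mitotic cyclins rose by small amounts. Cyclin B, the main partner of Cdk1 at mitotic entry (FBgn0000405, 2R:22803521-22806948), was at 356.5, 350.3 and 376 CPM in wildtype replicates 1 to 3 and 393, 399 and 411 CPM in nub1 replicates 1 to 3 (0.15 ± 0.034 on the log2 scale, SE; edgeR adjusted p = 0.00583). Cyclin B3, which acts in anaphase, was at 118, 114 and 121.5 CPM in wildtype replicates 1 to 3 and 128, 129 and 134.5 CPM in nub1 replicates 1 to 3 (0.15 ± 0.034; edgeR adjusted p = 0.00702). Cyclin A, needed for the G2/M transition, was at 325.5, 318.5 and 334 CPM in wildtype replicates 1 to 3 and 349, 352 and 355.5 CPM in nub1 replicates 1 to 3 (0.11 ± 0.027; edgeR adjusted p = 0.00847). For each of the 3 cyclins all nub1 libraries lay above all wildtype libraries. The inhibitory kinase gene Wee1, listed as wee, rose as well, at 54.1, 51.3 and 54.6 CPM in wildtype replicates 1 to 3 and 58.9, 57.0 and 57.2 CPM in nub1 replicates 1 to 3 (0.11 ± 0.033; edgeR adjusted p = 0.0196), a call lost without nub1 replicate 1 (0.0648). Wee1 overlaps the gene Rat1 and CycA overlaps CG7264, and without a stated strand setting their shared reads cannot be separated.

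The other 5 genes of this group, Cdk1, CycD, Cdk4, Myt1 and twe, did not pass the test. Cdk1 itself was at 150.5 ± 4.50 CPM on average over wildtype and 154 ± 2.26 CPM over nub1 libraries (SD, n = 3; log2 fold change 0.030, 95% interval -0.039 to 0.10; edgeR adjusted p = 0.445). The G1 pair CycD and Cdk4 had log2 fold changes of -0.0057 (95% interval -0.065 to 0.054) and -0.0067 (-0.067 to 0.054), and both signs turned with upper quartile scaling and with library sizes only. Myt1, the membrane-bound inhibitor of Cdk1, was at 0.057 (-0.024 to 0.14). The second Cdc25 gene, twe, known for its role in meiosis, was low, at 8.36, 9.16 and 9.82 CPM in wildtype replicates 1 to 3 and 10.2, 9.99 and 10.8 CPM in nub1 replicates 1 to 3. All nub1 libraries of twe were above all wildtype libraries, but the test was not passed (log2 fold change 0.18 ± 0.070, SE; edgeR adjusted p = 0.0609). The gene was called in 5 of the 17 alternative fits, among them those with upper quartile scaling (0.0475), library sizes only (0.0336), no filter (0.0493) and without wildtype replicate 3 (0.0271). The interval of twe, 0.021 to 0.34, includes the changes fitted for the 3 mitotic cyclins. As twe overlaps EndoGI, its low counts may include shared reads.

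**Figure D2:**
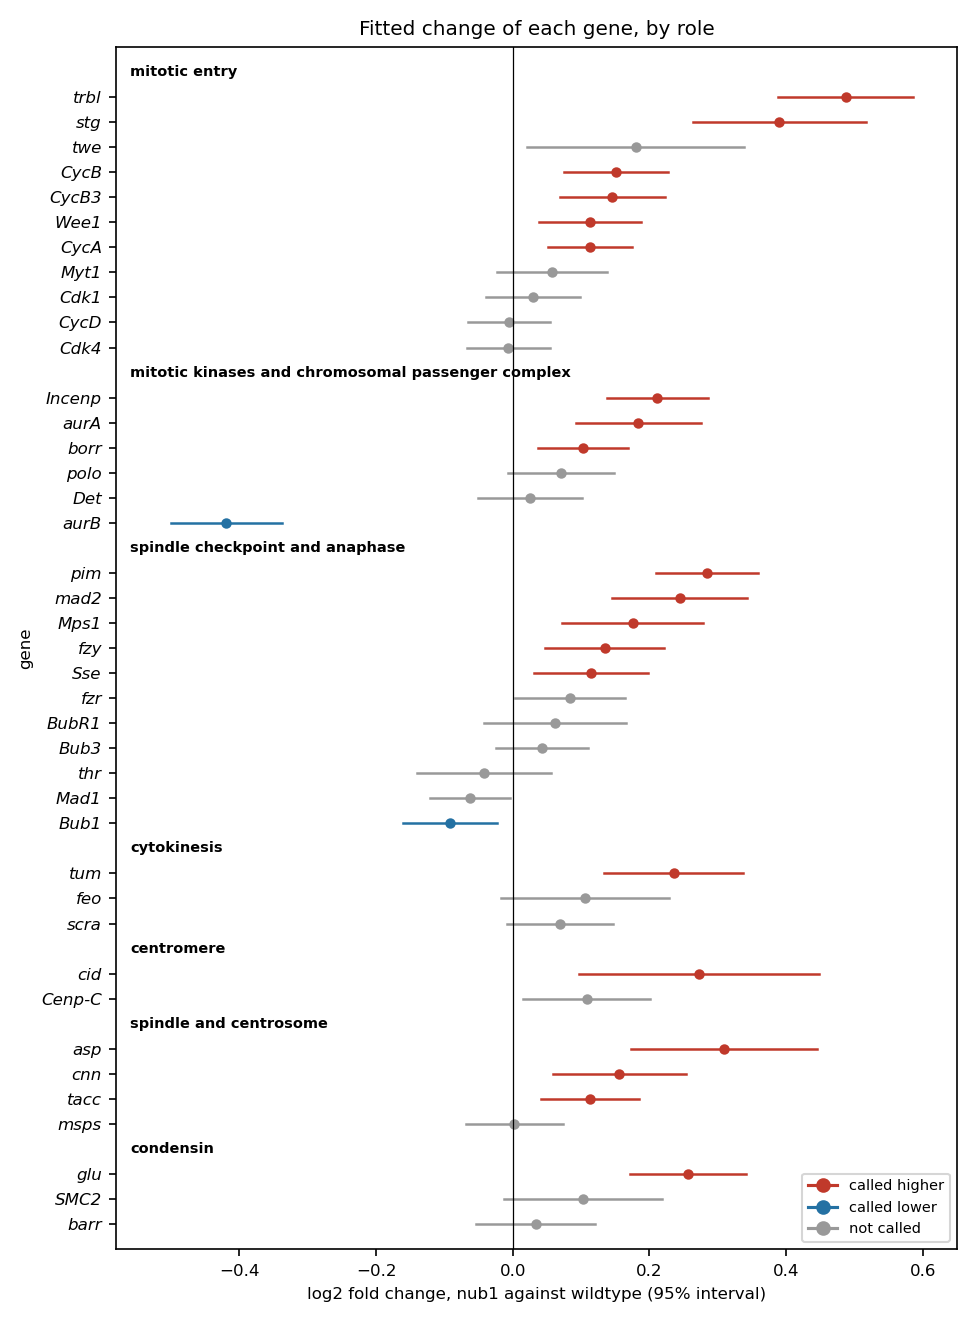
Fitted log2 fold change of each gene, nub1 against wildtype, with its 95% interval, grouped by role. Red genes rose, blue genes fell and grey genes did not pass the test at an adjusted p of 0.05; aurB, at -0.42, is apart from the other genes of its group.

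The chromosomal passenger complex, which corrects wrong spindle attachments and then guides cytokinesis, changed unequally. Its kinase Aurora B (FBgn0024227, 2L:10856797-10858094) was the gene that fell most, at 83.3, 88.1 and 88.7 CPM in wildtype replicates 1 to 3 and 63.5, 63.6 and 67.4 CPM in nub1 replicates 1 to 3 (log2 fold change -0.42 ± 0.036, SE; edgeR adjusted p = 2.34e-05). The nub1 libraries were all below the wildtype libraries, and the call held in all 17 alternative fits, with log2 fold changes from -0.45 to -0.39. The scaffold gene Incenp rose, at 210.5, 215 and 223 CPM in wildtype replicates 1 to 3 and 245, 247 and 259 CPM in nub1 replicates 1 to 3 (log2 fold change 0.21 ± 0.033, SE; edgeR adjusted p = 0.000813). The Borealin gene borr rose a little, at 91.3, 93.0 and 94.8 CPM in wildtype replicates 1 to 3 and 98.1, 98.7 and 103 CPM in nub1 replicates 1 to 3 (log2 fold change 0.10 ± 0.029, SE; edgeR adjusted p = 0.0175), a call lost without wildtype replicate 1 (0.0507) or nub1 replicate 3 (0.0533). Det, the Survivin of the complex, was at 30.3 ± 0.777 CPM on average over wildtype and 30.9 ± 0.379 CPM over nub1 libraries (SD, n = 3; log2 fold change 0.025, 95% interval -0.052 to 0.10; edgeR adjusted p = 0.568). Thus in the same libraries 1 subunit gene fell, 2 rose and 1 did not pass the test. Of all tested genes 23.9% fell and 24.4% rose.

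Counts of 2 genes in the same library give a ratio that no scaling can move. For aurB over Incenp this ratio was 0.396, 0.410 and 0.397 in wildtype and 0.259, 0.257 and 0.261 in nub1 replicates 1 to 3, a difference of -35.4%. For aurB over borr it was 0.912, 0.947 and 0.935 in wildtype and 0.647, 0.644 and 0.655 in nub1 replicates 1 to 3 (-30.3%), and for aurB over Det 2.82, 2.89 and 2.86 in wildtype and 2.08, 2.03 and 2.19 in nub1 replicates 1 to 3 (-26.6%). The ratio was thus lower in each nub1 library than in each wildtype library with any of the 3 partners. Such ratios restate the changes of the single genes in the same counts and add no separate support for them. The partners' own ratios were lower as well, with no overlap between groups (-7.3% for borr over Incenp and -12.1% for Det over Incenp). Of 24 such pairs compared, chosen with the results known, 18 had groups that did not overlap, 8 higher and 10 lower in nub1 discs. Each of these 18 had a two-sided exact permutation p of 0.10, the smallest that 3 against 3 libraries can give, and 0.13 adjusted over the 24 pairs. Ratios of other gene pairs were not computed as a background. Among single tested genes, 29.7% lay higher and 30.3% lower in nub1 without overlap, so the 18 cannot be read as particular to these pairs. Ratios of counts depend on transcript length, so they compare libraries and say nothing of which gene of a pair was the more abundant.

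The other mitotic kinases were higher or did not pass. Aurora A, the centrosomal kinase gene aurA, rose, at 39.4, 40.8 and 42.9 CPM in wildtype replicates 1 to 3 and 45.1, 46.5 and 48.2 CPM in nub1 replicates 1 to 3 (log2 fold change 0.18 ± 0.040, SE; edgeR adjusted p = 0.00521). It overlaps CG12213. The aurB over aurA ratio was 2.11, 2.16 and 2.07 in wildtype and 1.41, 1.37 and 1.40 in nub1 replicates 1 to 3, with each nub1 library below each wildtype library. For polo, the Polo kinase gene, the level was 439 ± 15.4 CPM on average over wildtype and 461 ± 12.9 CPM over nub1 libraries (SD, n = 3; log2 fold change 0.071, 95% interval -0.0070 to 0.15), and a call appeared without wildtype replicate 3 (edgeR adjusted p = 0.0483).

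**Figure D3:**
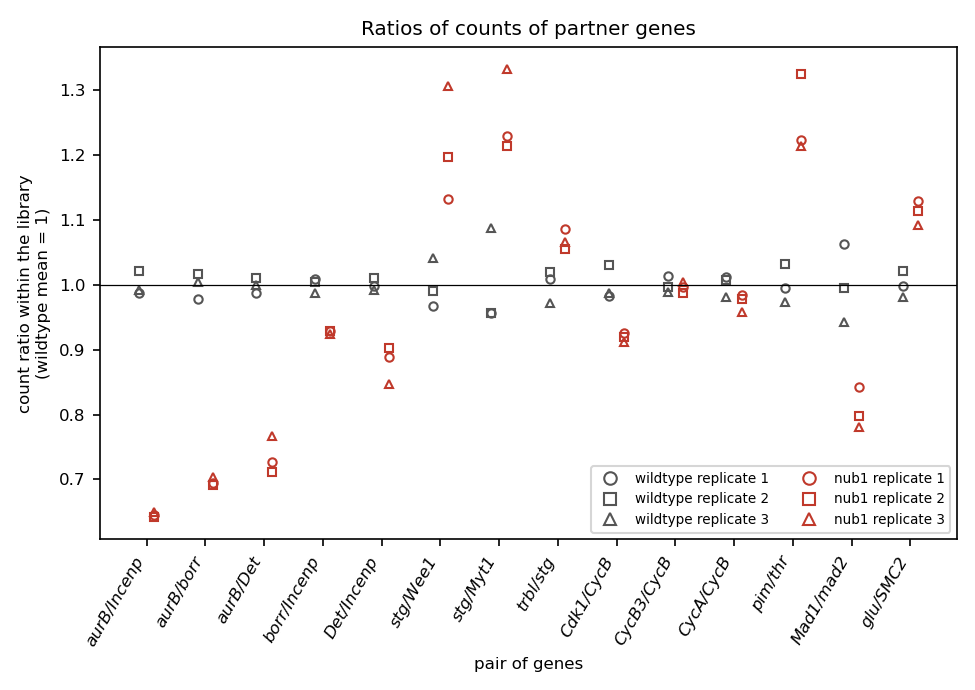
Ratio of the counts of a pair of genes within each library, divided by the mean wildtype ratio of that pair, for 14 of the 24 pairs compared. Symbols are libraries, grey for wildtype and red for nub1; the 3 ratios with aurB are the lowest in nub1 libraries, and for CycB3 over CycB the groups overlap.

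Of 11 spindle checkpoint and anaphase genes 5 rose and 1 fell, beside 24.4% and 23.9% of all tested genes. The securin gene pim (FBgn0003087, 2L:10362989-10364092) rose most, at 37.2, 36.9 and 38.7 CPM in wildtype replicates 1 to 3 and 44.7, 46.8 and 46.0 CPM in nub1 replicates 1 to 3 (log2 fold change 0.28 ± 0.033, SE; edgeR adjusted p = 0.000151). The checkpoint gene mad2, whose product inhibits the APC/C activator Fizzy, was at 31.9, 33.6 and 35.1 CPM in wildtype replicates 1 to 3 and 38.6, 39.3 and 41.2 CPM in nub1 replicates 1 to 3 (log2 fold change 0.24 ± 0.044, SE; edgeR adjusted p = 0.00180). The checkpoint kinase gene Mps1 was at 26.2, 25.5 and 25.1 CPM in wildtype replicates 1 to 3 and 27.5, 28.7 and 30.6 CPM in nub1 replicates 1 to 3 (log2 fold change 0.18 ± 0.045, SE; edgeR adjusted p = 0.0118). In these 3 genes the groups did not overlap, but the Mps1 call was lost without both libraries numbered 3 (edgeR adjusted p = 0.0844). Without wildtype replicate 2 the group had 3 rises. The genes mad2 and Mps1 overlap kri and alt.

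The mitotic APC/C activator gene fzy was at 142, 141 and 148 CPM in wildtype replicates 1 to 3 and 151, 156 and 165 CPM in nub1 replicates 1 to 3 (log2 fold change 0.13 ± 0.038, SE; edgeR adjusted p = 0.0184). This call was lost without wildtype replicate 2 (0.0591), and fzy overlaps cact as Sse overlaps sif. Separase, encoded by Sse, was at 19.4, 19.1 and 19.97 CPM in wildtype replicates 1 to 3 and 21.2, 21.1 and 21.0 CPM in nub1 replicates 1 to 3 (log2 fold change 0.11 ± 0.037, SE; edgeR adjusted p = 0.0291). The Sse call was lost without wildtype replicate 1 (0.0600), wildtype replicate 2 (0.0613), nub1 replicate 1 (0.0748), nub1 replicate 2 (0.0836) or nub1 replicate 3 (0.0629), that is without any 1 library but wildtype replicate 3. The fall in this group was that of the checkpoint kinase gene Bub1, at 65.2, 61.9 and 63.1 CPM in wildtype replicates 1 to 3 and 58.7, 58.8 and 60.9 CPM in nub1 replicates 1 to 3 (log2 fold change -0.092 ± 0.030, SE; edgeR adjusted p = 0.0337). It too was lost without wildtype replicate 1 (0.128), wildtype replicate 3 (0.0662), nub1 replicate 1 (0.105) or nub1 replicate 2 (0.128), which leaves aurB as the sole fall among the 40 genes in those fits.

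The other 5 genes of this group did not pass. Mad1, which recruits Mad2 to kinetochores, had all nub1 libraries below all wildtype libraries, at 93.6, 92.5 and 91.6 CPM in wildtype replicates 1 to 3 and 90.1, 86.7 and 89.1 CPM in nub1 replicates 1 to 3 (log2 fold change -0.062 ± 0.026, SE; edgeR adjusted p = 0.0757). The Mad1 over mad2 ratio was 2.94, 2.75 and 2.61 in wildtype and 2.33, 2.21 and 2.16 in nub1 replicates 1 to 3 (-19.2%). Mad1 overlaps Cog6. The fitted log2 fold changes were 0.061 (95% interval -0.043 to 0.16) for BubR1, 0.043 (-0.025 to 0.11) for Bub3 and -0.042 (-0.14 to 0.057) for thr, the gene of another separase subunit. The interphase APC/C activator gene fzr was at 0.084 (0.0036 to 0.16), with all nub1 libraries above all wildtype libraries. The pim over thr ratio was 0.696, 0.721 and 0.680 in wildtype and 0.855, 0.926 and 0.849 in nub1 replicates 1 to 3 (25.3%). The pim over Sse ratio was 1.92, 1.93 and 1.94 in wildtype and 2.11, 2.22 and 2.19 in nub1 replicates 1 to 3 (12.5%). Securin counts were thus higher against those of either gene in each nub1 library, and less so against Sse.

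The cytokinesis, centromere, spindle and condensin genes among the 40 rose or did not pass, and 0 of them fell. These groups hold only 2 to 4 genes each, and of all tested genes 24.4% rose and 23.9% fell. In cytokinesis the centralspindlin gene tum (FBgn0086356, 2R:13856150-13858689) rose, at 142, 140.3 and 155 CPM in wildtype replicates 1 to 3 and 165, 170.1 and 179 CPM in nub1 replicates 1 to 3 (log2 fold change 0.24 ± 0.045, SE; edgeR adjusted p = 0.00263). The midzone microtubule bundler gene feo was at 0.11 (95% interval -0.017 to 0.23) and the anillin gene scra at 0.069 (-0.0081 to 0.15), and feo was called without wildtype replicate 3 (edgeR adjusted p = 0.0137). The centromeric histone gene cid, low in all libraries, was at 6.90, 6.54 and 7.68 CPM in wildtype replicates 1 to 3 and 8.43, 8.09 and 9.04 CPM in nub1 replicates 1 to 3 (log2 fold change 0.27 ± 0.077, SE; edgeR adjusted p = 0.0180), and lost its call without wildtype replicate 2 (0.0585) or nub1 replicate 3 (0.0566). Cenp-C, which links the centromere to the kinetochore, had groups that did not overlap, at 104, 97.6 and 109 CPM in wildtype replicates 1 to 3 and 110.1, 110.4 and 114 CPM in nub1 replicates 1 to 3, but did not pass (log2 fold change 0.11 ± 0.041, SE; edgeR adjusted p = 0.0549). It was called in 7 of the 17 alternative fits, among them DESeq2 (0.0495), no filter (0.0319) and the fit without wildtype replicate 3 (0.0147).

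At the spindle poles asp (FBgn0000140, 3R:24753849-24760513), a gene of microtubule focusing whose human counterpart is linked to microcephaly, was at 182, 168 and 193 CPM in wildtype replicates 1 to 3 and 215, 219 and 239 CPM in nub1 replicates 1 to 3 (log2 fold change 0.31 ± 0.058, SE; edgeR adjusted p = 0.00362). The groups did not overlap, although replicates of each spread with an SD of 12.6 CPM. The centrosomin gene cnn, a scaffold of the pericentriolar material, was at 113, 107 and 115.5 CPM in wildtype replicates 1 to 3 and 121, 121 and 132 CPM in nub1 replicates 1 to 3 (log2 fold change 0.16 ± 0.043, SE; edgeR adjusted p = 0.0150), and its call was lost without wildtype replicate 2 (0.0550). The gene tacc, whose product recruits the microtubule polymerase Msps, was at 317, 295 and 312 CPM in wildtype replicates 1 to 3 and 331, 336 and 333 CPM in nub1 replicates 1 to 3 (log2 fold change 0.11 ± 0.032, SE; edgeR adjusted p = 0.0168), a call lost without nub1 replicate 2 (0.0682). The polymerase gene msps itself was at 504 ± 17.7 CPM on average over wildtype and 505 ± 4.598 CPM over nub1 libraries (SD, n = 3; log2 fold change 95% interval -0.068 to 0.073). The tacc over msps ratio was higher in each nub1 library, at 0.624, 0.609 and 0.601 in wildtype and 0.661, 0.667 and 0.652 in nub1 replicates 1 to 3. Overlapping genes are CG30062 for cnn, the antisense gene asRNA:CR46137 and mir-9384 for tacc and CG10185 for msps.

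Condensin compacts chromosomes and is built on an SMC pair. The SMC4 gene glu (FBgn0015391, 2L:16733617-16738388) was at 184, 180.0 and 190.1 CPM in wildtype replicates 1 to 3 and 214, 216 and 232 CPM in nub1 replicates 1 to 3 (log2 fold change 0.26 ± 0.037, SE; edgeR adjusted p = 0.000582). It overlaps Nubp1. Its partner SMC2 was at 0.10 (95% interval -0.012 to 0.22; edgeR adjusted p = 0.123), and the kleisin gene barr at 0.033 (-0.054 to 0.12). The glu over SMC2 ratio was 1.10, 1.12 and 1.08 in wildtype and 1.25, 1.23 and 1.203 in nub1 replicates 1 to 3 (11.2%). From the pathway lists, the other condensin I genes Cap-D2 and Cap-G rose (0.16 ± 0.038 and 0.12 ± 0.039 on the log2 scale, SE; edgeR adjusted p = 0.00920 and 0.0340). Of the condensin II genes, Cap-D3 fell from 38.9 ± 0.927 to 27.1 ± 0.625 CPM (SD, n = 3; log2 fold change -0.52 ± 0.035, SE; edgeR adjusted p = 4.92e-06), and Cap-H2 was at -0.095 (edgeR adjusted p = 0.0904). The Cap-G call was lost without wildtype replicate 1 (0.0828), wildtype replicate 2 (0.0993), nub1 replicate 2 (0.0607) or nub1 replicate 3 (0.0898), and Cap-H2 was called lower without wildtype replicate 2 (0.0149). Cap-D3 overlaps several genes, among them Coq6 and Cox11, so its value is uncertain.

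Beyond the 40 genes, 135 genes of 11 further lists, from kinetochore to G1/S control, were read in the same fit. Of the 131 that could be tested 59 rose and 17 fell, with a median log2 fold change of 0.072. All list counts are to be set beside the 24.4% of tested genes that rose and the 23.9% that fell, and a list near those shares shows nothing particular to it. Kinetochore genes gave the highest share of rises, with 12 of 13 higher and 0 lower (median 0.21). Spindly, the dynein adaptor of the kinetochore, rose from 54.0 ± 1.25 to 68.4 ± 2.48 CPM (SD, n = 3; log2 fold change 0.34 ± 0.034, SE; edgeR adjusted p = 6.19e-05). The Mis12 complex gene Nnf1b rose from 1.98 ± 0.225 to 3.93 ± 0.126 CPM (log2 fold change 0.99 ± 0.11, SE; edgeR adjusted p = 0.000110) and Kmn1 from 16.9 ± 0.458 to 20.6 ± 0.876 CPM (log2 fold change 0.28 ± 0.045, SE; edgeR adjusted p = 0.000970). Nnf1b has a related copy, Nnf1a, which differed by 0.11 ± 0.041 (edgeR adjusted p = 0.0479), a call lost without wildtype replicate 1 (0.0925), wildtype replicate 2 (0.120), nub1 replicate 1 (0.0795) or nub1 replicate 3 (0.145). The member of the list that was not called was Spc25, at 0.016 (95% interval -0.056 to 0.088). Without nub1 replicate 3 there were 10 kinetochore rises, and 9 without both libraries numbered 3. Spindly overlaps CG8852 and Kmn1 overlaps CG11699.

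In the spindle assembly list 12 of 19 tested genes rose and 1 fell (median 0.16). All 8 genes of the augmin complex, which nucleates microtubules along the spindle, were among the rises (0.13 to 0.32 on the log2 scale); this subset was singled out after its values were seen. The augmin gene dgt5 rose from 39.3 ± 1.13 to 49.1 ± 1.40 CPM (SD, n = 3; log2 fold change 0.32 ± 0.035, SE; edgeR adjusted p = 0.000104) and dgt6 from 39.9 ± 1.53 to 46.6 ± 0.292 CPM (log2 fold change 0.22 ± 0.034, SE; edgeR adjusted p = 0.000752), while the spindle gene mars rose from 88.7 ± 2.70 to 113 ± 6.60 CPM (log2 fold change 0.35 ± 0.044, SE; edgeR adjusted p = 0.000255). Leaving out nub1 replicate 3 lowered the augmin count to 6. The fall was that of Mgtor (-0.10; edgeR adjusted p = 0.0232), and it was lost without wildtype replicate 1 (0.0723), wildtype replicate 3 (0.0820), nub1 replicate 1 (0.0790) or nub1 replicate 2 (0.108). The genes dgt5 and mars overlap CG8545 and drk.

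For centriole and pericentriolar genes 8 of 20 tested rose and 2 fell (median 0.063). The gamma-tubulin complex gene Grip91 rose from 68.1 ± 4.72 to 85.1 ± 2.89 CPM (SD, n = 3; log2 fold change 0.32 ± 0.050, SE; edgeR adjusted p = 0.00101), and the centriole genes ana1 (0.22 ± 0.038; edgeR adjusted p = 0.00164) and asl (0.16 ± 0.029; 0.00212) rose less. The centriole duplication gene ana2 fell from 27.9 ± 1.80 to 17.9 ± 1.95 CPM (log2 fold change -0.64 ± 0.083, SE; edgeR adjusted p = 0.000528), as did Cp110, a cap protein gene of centrioles (-0.26 ± 0.054; edgeR adjusted p = 0.00443). Both overlap other genes, ana2 with Sec31, as do Grip91 and ana1. Of cytokinetic ring and septin genes 6 of 15 rose and 2 fell (median 0.069). The gene pbl, needed for furrowing in cytokinesis, rose from 154 ± 6.43 to 183 ± 4.86 CPM (log2 fold change 0.25 ± 0.037, SE; edgeR adjusted p = 0.000565), Septin5 rose by 0.26 ± 0.040 and the citron kinase gene sti by 0.20 ± 0.044 on the log2 scale. Septin4 fell from 1.10 ± 0.122 to 0.303 ± 0.0828 CPM (log2 fold change -1.86 ± 0.22, SE; edgeR adjusted p = 0.000192), at low counts, and the myosin light chain gene sqh fell by 0.11 (edgeR adjusted p = 0.0294), a call lost without wildtype replicate 1 (0.0899), wildtype replicate 2 (0.10), nub1 replicate 2 (0.0800) or nub1 replicate 3 (0.0810).

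The Cdk cofactor and checkpoint list was split, with 4 of 10 tested genes higher and 3 lower (median -0.015). Cks30A, the gene of a small Cdk-binding subunit, rose from 111 ± 7.43 to 157 ± 7.17 CPM (SD, n = 3; log2 fold change 0.50 ± 0.052, SE; edgeR adjusted p = 0.000118), and the checkpoint genes lok (0.26 ± 0.033; edgeR adjusted p = 0.000238) and Claspin (0.28 ± 0.048; 0.00176) rose. The second Cks gene, Cks85A, fell (-0.22 ± 0.054; edgeR adjusted p = 0.00984), as did the ATR kinase gene mei-41 (-0.20 ± 0.034; 0.00153) and rux, the gene of a Cyclin A inhibitor (-0.18; 0.0471). The rux call was lost without wildtype replicate 2 (0.140), wildtype replicate 3 (0.134), nub1 replicate 1 (0.107) or nub1 replicate 3 (0.139). Of G1/S regulators 3 of 12 rose and 3 fell (median 0.010), near the shares over all tested genes. The Cdk2 inhibitor gene dap rose from 98.6 ± 8.71 to 136 ± 6.54 CPM (log2 fold change 0.46 ± 0.066, SE; edgeR adjusted p = 0.00123), CycE and dup rose by 0.12 and 0.18, and ago, whose product targets Cyclin E and Myc for destruction, fell (-0.25 ± 0.047; edgeR adjusted p = 0.00226). Myc fell too (-0.16 ± 0.043; edgeR adjusted p = 0.0131), a call lost without nub1 replicate 2 (0.0512). E2f2, at -0.073 (edgeR adjusted p = 0.0384), lost its call whichever 1 library was left out (edgeR adjusted p 0.0581 to 0.117), and 1 G1/S fall was left without nub1 replicate 2.

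The remaining 4 lists had medians under 0.1 in size. Of APC/C genes 4 of 12 tested rose and 1 fell (median 0.091), with mr at 0.11 ± 0.028 (edgeR adjusted p = 0.0103). APC10 (0.13), APC4 (0.12) and vih, the fall (-0.082), each lost their calls under 4 or 5 of the 6 single omissions, so that 1 rise was left without wildtype replicate 2 or nub1 replicate 3. Of cohesin genes 5 of 11 rose and 1 fell (median 0.072), with SMC1 at the smallest adjusted p (0.12 ± 0.029; edgeR adjusted p = 0.00817). The rises of san (0.10) and SMC3 (0.10) and the fall of pds5 (-0.073) each needed several libraries. Between 1 and 3 cohesin genes rose when any 1 library was left out. Of Greatwall and phosphatase genes 1 of 10 rose and 3 fell (median -0.036): endos, the phosphatase inhibitor below Greatwall, rose (0.11 ± 0.026; 0.00815) and Pp1alpha-96A fell (-0.16 ± 0.030; 0.00185), both edgeR adjusted p. The falls came to 1 without wildtype replicate 3 or nub1 replicate 2 or 3. The other falls, Pp2A-29B (-0.080) and flw (-0.094), were lost without nub1 replicate 2 among others. Of the Myb-MuvB complex, which regulates transcription of many mitotic genes, mip40 and Myb rose (0.16 ± 0.028 and 0.11 ± 0.028; edgeR adjusted p = 0.00164 and 0.0115) and the 3 other genes did not pass.

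**Figure D4:**
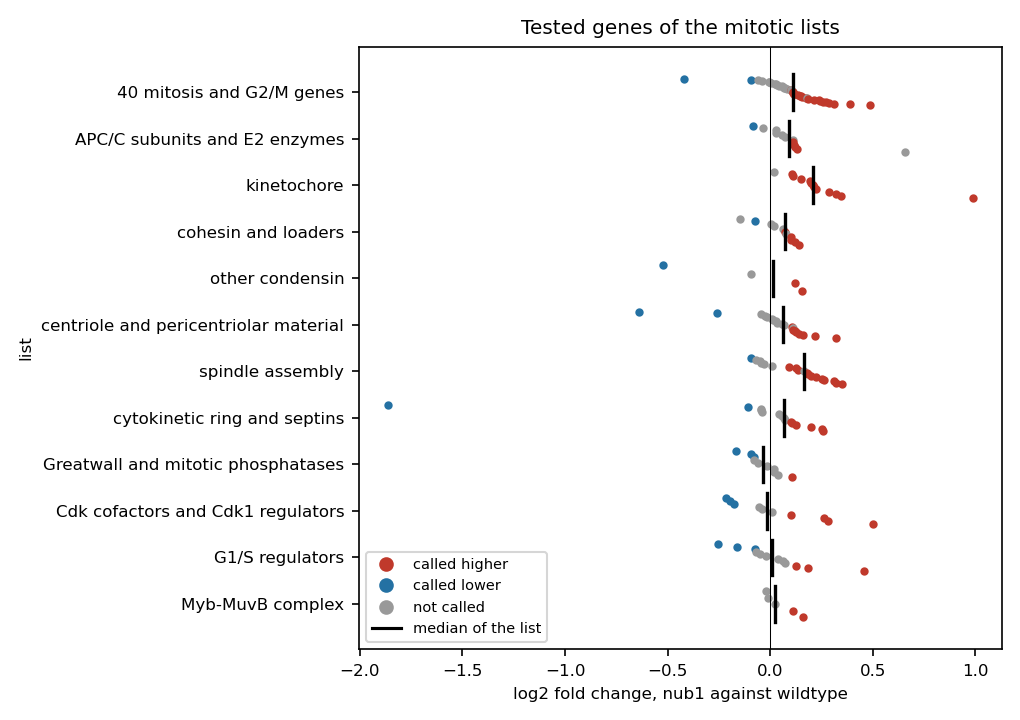
Log2 fold change of every tested gene of the 40 genes and of the 11 further lists, 1 point per gene, with a black bar at the median of each list. Red points rose, blue points fell and grey points did not pass the test; the kinetochore and spindle assembly medians, 0.21 and 0.16, lie farthest to the right.

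The 40 genes varied together within the groups as well. In wildtype, 33 of the 40 had their highest CPM in replicate 3 and 23 their lowest in replicate 2. In nub1, 31 had their highest in replicate 3 and 30 their lowest in replicate 1. Of all tested genes, 30.8% and 39.4% were highest in replicate 3 of wildtype and of nub1. Without both libraries numbered 3, 20 of the 40 rose and 2 fell, and 18 of those rises were among the 20 found with all libraries. The SD between replicates had a median of 3.36% of the mean in wildtype and 2.84% in nub1 discs over the 40 genes, and the smallest rise called was 0.10 on the log2 scale, for borr.

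Markers of stage and of other cells differed between the same libraries, and their part in these results was not tested. Counts of calls in the marker lists are to be set beside the 24.4% of all tested genes that rose and the 23.9% that fell. The 16 ecdysone response and staging genes summed to 9738, 10170 and 8147 CPM in wildtype replicates 1 to 3 and to 5559, 5470 and 3589 CPM in nub1 replicates 1 to 3. The library with the lowest sum in each group, replicate 3, was the one with the highest sum of mitotic genes. Of the 15 staging genes tested, 5 rose and 4 fell, and Edg84A had 0 counts. The falls were ImpE2 (4519 to 1474 CPM, group means) and br (2828 to 2276 CPM), which made up most of the sum, and Eip75B and Eip78C. The rises, against the direction of the sum, were ftz-f1 (11.8 to 33.8 CPM), chinmo (24.3 to 80.0 CPM), Eip74EF, ImpL2 and Edg78E. ImpE1 (798 to 270 CPM) and Hr4 (253 to 69.5 CPM) were lower in all nub1 libraries but were not called. In nub1 replicates 1 to 3 Hr4 was at 96.8, 108 and 4.08 CPM. The 7 myoblast markers, of cells that also divide, summed to 565 to 623 CPM in wildtype and 481 to 532 CPM in nub1, with 3 higher and 2 lower. Within that sum Ama fell from 309 to 174 CPM and Him from 17.7 to 11.6 CPM (group means). The rises were htl (30.6 to 48.9 CPM), stumps (61.9 to 91.6 CPM) and twi (30.5 to 34.0 CPM), so the sum does not give the direction of the list. The 6 tracheal markers summed to 1537 to 1686 and 1619 to 1806 CPM (2 higher, 2 lower), and the 8 haemocyte markers to 175 to 242 and 400 to 437 CPM (3 higher, 3 lower). The collagen genes Col4a1 (99.3 to 206 CPM, group means) and vkg (64.5 to 145 CPM) made up most of the haemocyte difference. NimC1 rose as well, while srp, eater and He fell. The 7 fat body markers summed to 20.7 to 56.1 and 25.8 to 31.0 CPM (2 higher, 1 lower), the 7 salivary gland genes to 7.82 to 10.3 and 1.93 to 2.80 CPM (0 higher, 7 lower) and the 6 neuron and glia genes to 39.0 to 42.3 and 43.3 to 43.9 CPM (2 higher, 2 lower). The 7 genes of eye and other discs summed to 51.7 to 58.9 and 33.8 to 38.1 CPM (0 higher, 3 lower). None of these markers but gl and Edg84A had 0 counts in all libraries.

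**Figure D5:**
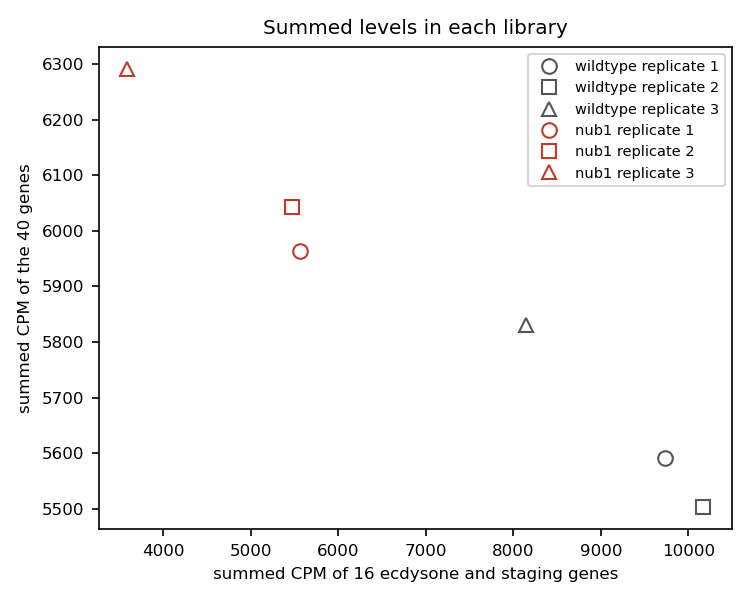
Summed CPM of the 40 mitosis and G2/M genes on the vertical axis against the summed CPM of 16 ecdysone response and staging genes on the horizontal axis, 1 symbol per library, neither axis starting at 0. ImpE2 and br make up most of the staging sum. The nub1 libraries, in red, lie above and to the left of the wildtype libraries, in grey, and replicate 3 is the upper left symbol of each group.

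By position, the genes that changed were spread over the arms. Of the tested genes among the 40, 5 of 10 rose and 2 fell on 2L, 5 of 11 rose on 2R, 4 of 6 on 3L, 6 of 10 on 3R and 0 of 3 on X. Over all tested genes the share that rose was 24.6% on 2L, 27.5% on 2R, 24.8% on 3L, 24.3% on 3R and 20.5% on X. Both falls, aurB and Bub1, were on 2L, the arm that carries nub, where 27.1% of all tested genes fell, beside 24.4% on 2R, 23.8% on 3L, 22.9% on X and 22.3% on 3R. The start of aurB lies 1.73 Mb from that of nub, the shortest such distance among the 40, and Cdk1, next in distance, lies 2.20 Mb away. Of the 10 tested genes nearest to aurB, 5 on each side, 5 fell and 3 rose. The adjoining genes Dnz1 and Stam differed by -0.14 and 0.096 on the log2 scale (edgeR adjusted p = 0.00466 and 0.0582). Of the others, Nos, CG16743 and Porin2, all under 1 CPM, differed by -2.96, 3.71 and 1.11, and CG6700 fell by 0.28. Around the other called genes, neighbours called in the gene's own direction ranged from 0 of 10 for Wee1 to 8 of 10 for cnn. Near Bub1, 7.31 Mb from nub, 1 of 10 fell. Differences linked to the chromosome that carries nub[1] cannot be told apart from those of the allele. Of the 40 genes 24 overlap no other annotated gene, among them trbl, stg, asp, pim, Incenp, tum and aurB.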

How the data were processed

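RNA libraries came from dissected wing discs and a directional kit, per the labels' protocols. The deposited values are raw counts per gene, not normalized by the authors. The submitters' processing notes name bcl2fastq, HISAT2, featureCounts, Bowtie2, deepTools and the build dm6, without versions. The strand setting, multi-mapping rule and annotation release are not stated in any source used. ATAC-seq and ChIP-seq samples were not analysed here.

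A symbol was found for 17710 of 17807 gene IDs, and IDs without one (97) took 0.687% of counts. RefSeq's Release 6 annotation, on the dm6 assembly, gave positions. All 40 genes matched, wee as Wee1 by synonym, as did 135 of 137 pathway genes (not zip and mat1). The 9186 genes kept by filterByExpr were scaled by TMM and entered a robust edgeR quasi-likelihood fit on genotype alone, and p-values were adjusted by Benjamini-Hochberg over all of them. The SE is the log2 fold change divided by the square root of F. No transcript lengths were used, so levels are not compared between genes.

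The genes, lists and pairs were chosen with earlier results of these data known. All 40 genes are named, with every library shown for those called and for those whose size was at least 0.3 on the log2 scale. From each pathway list up to 3 called genes per direction are named, by adjusted p. Showing every library of twe, Mad1 and Cenp-C, and naming Nnf1a, Spc25, Cap-H2, single markers and the neighbours of aurB and other genes, were chosen after seeing values. Lists got no test of their own. In a chi-square test of counts, replicates of a group differed by more than sampling noise (4.11 to 32.0 per degree of freedom). The code was tested on simulated counts. Alternatives were other scalings, filters, tests, thresholds, a replicate block and leaving out libraries. Software was edgeR 4.0.16 with limma 3.58.1, DESeq2 1.42.0 for an alternative, all under R 4.3.3, and matplotlib 3.10.9 for figures.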

Additional observations from a re-analysis of the deposited data

How the results depend on the processing

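The counts of 20 rises and 2 falls among the 40 genes were 20 and 2 with RLE size factors, with the 20 most abundant genes left out, with floors of 1 or 5 CPM and with limma-voom. They were 23 and 1 with upper quartile scaling and with library sizes only, 22 and 1 with no filter, 20 and 1 with DESeq2 (19 of the same rises, with Sse lost at 0.0816 and Cenp-C gained), 20 and 2 without both libraries numbered 3, 12 and 1 at an adjusted p under 0.01, and 5 and 1 at 1.2-fold. Leaving out 1 library gave 16 to 24 rises and 1 to 2 falls. The fall lost was that of Bub1; the cause was not tested. The other pathway genes, with 59 rises and 17 falls, gave 9 falls with upper quartile scaling, with library sizes only and without both libraries numbered 3, 36 and 8 at an adjusted p under 0.01, 12 and 3 at 1.2-fold, and 45 to 58 rises and 9 to 17 falls with 1 library left out. All genes, 2239 higher and 2195 lower, gave 1418 lower at an adjusted p under 0.01, 1256 and 1150 at 1.2-fold, and 1827 to 2094 higher and 1726 to 1995 lower with 1 library left out; these causes were not tested either.

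Of the 40 genes, only some that were not called changed sign. CycD turned to 0.012 with upper quartile scaling, 0.027 with library sizes only, 0.0093 without both libraries numbered 3 and, with 1 library left out, ranged from -0.012 to 0.010. Cdk4 turned to 0.012 and 0.026 with the same scalings and ranged from -0.023 to 0.0096 with 1 library left out. In the same fits msps ranged from -0.023 to 0.024 and barr from -0.0022 to 0.060.

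With the replicate block 26 of the 40 genes rose and 2 fell. Deviations of same-numbered libraries correlated at 0.043, 0.035 and 0.25, so the numbers were not taken as pairs. As a hint from the data only, both libraries numbered 3 correlated best with each other, and the others did not each correlate best with their own number. At 58434785 or more counts per library the SE of the 40 genes had a median of 0.036 on the log2 scale.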
